A study of Mus musculus with 8 samples.

Results

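Solute carriers are membrane proteins that move amino acids, sugars, ions, organic acids, vitamins and metabolites across the plasma membrane, the inner mitochondrial membrane and the membranes of the Golgi and lysosomes. This account covers the 80 solute carrier genes with a mean log2 signal of 9 or more over all 8 arrays, out of 324 genes on the array whose symbol has the Slc family form. Of the 324, the 48 genes of families Slc9, Slc10, Slc26, Slc30, Slc39 and Slc51 were left out, and 196 of the other 276 had a mean below 9. The choice used the mean over all arrays and no difference between groups. The 80 genes belong to 31 families and were sorted by family into 8 classes of cargo or site: 20 mitochondrial carriers, 19 carriers of amino acids and related compounds, 10 of organic anions and cations, 9 of the Golgi and endoplasmic reticulum, 9 of vitamins, nucleosides, choline and heme, 7 of inorganic ions and metals, 4 of sugars and 2 of fatty acids.

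RNA came from colon epithelial cells of C57BL/6J mice, either wild type (WT) or SMS2 knockout, which lack a sphingomyelin synthase encoded by Sgms2. Each genotype was sampled untreated and after 2 days on 3.5% dextran sulfate sodium (DSS), a polymer that injures the colon lining, in the drinking water. Each of the 4 groups held 2 arrays, numbered as biological replicates, and how many mice made up each is not stated in the labels. The comparisons ask how DSS changed each genotype, how the knockout differed from WT in each treatment, and whether the DSS change differed between genotypes.

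Absorptive colonocytes take up butyrate and other short-chain fatty acids made by bacteria, and they oxidise them in mitochondria, so monocarboxylate carriers and the mitochondrial carrier family are prominent in this tissue. Apical carriers couple uptake to the sodium gradient kept by the sodium pump or to protons. Some amino acid carriers need a partner: Slc3a1 and Slc3a2 encode heavy subunits that bring light subunits of family Slc7 to the membrane.

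All 80 genes were above background on every array, taken as the signal that 75% of an array's negative controls stay under (6.00 to 6.24), and 67 were at 9 or more on every array. For 9 genes the mean of at least 1 group was below 9: Slc3a1, Slc38a6, Slc43a3, Slc27a4, Slc33a1, Slc25a23, Slc13a1, Slc16a9 and Slc19a1. Their place among the 80 thus depended in part on the groups in which they were high. The genes just inside the level were Slc43a3 at a mean of 9.02, Slc27a4 at 9.08 and Slc33a1 at 9.08. Those just outside were Slc24a3 at 8.79, Slc25a28 at 8.76 and Slc41a2 at 8.72. Replicate arrays differed by a median of 0.25 (log2) over the 80 genes on the untreated WT arrays, 0.36 on the WT DSS arrays, 0.19 on the untreated knockout arrays and 0.34 on the knockout DSS arrays. The knockout DSS arrays had the most genes apart by over 1, with 5.

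The targeted gene bore out the genotype labels. Sgms2 was at 10.79 and 10.76 (untreated) and 11.27 and 10.90 (DSS) on the WT arrays, while the knockout arrays read 7.30 and 7.33 (untreated) and 7.35 and 6.47 (DSS). Epithelial markers were high in all groups, with a mean over 9 genes of 15.36 to 15.85 per array. Markers of other cell types differed between groups: the mean of 11 fibroblast and matrix markers was 8.15 to 8.46 on untreated WT arrays, 9.55 to 9.84 on untreated knockout arrays and 10.98 to 11.89 on DSS arrays. Exocrine pancreas markers had a mean of 12.06 over 10 genes on WT DSS replicate 1 and 6.19 to 7.69 on the other arrays. Y-linked transcripts were at background on all untreated arrays (mean of 3 genes 3.75 to 3.90) and present on all DSS arrays (8.99 to 9.95). In every comparison of DSS with untreated arrays, DSS and this difference thus cannot be told apart. Below, a change with DSS stands for a difference between DSS and untreated arrays. In RNA from many cells, fewer cells of a type and less RNA per cell cannot be told apart either.

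**Figure D1:**
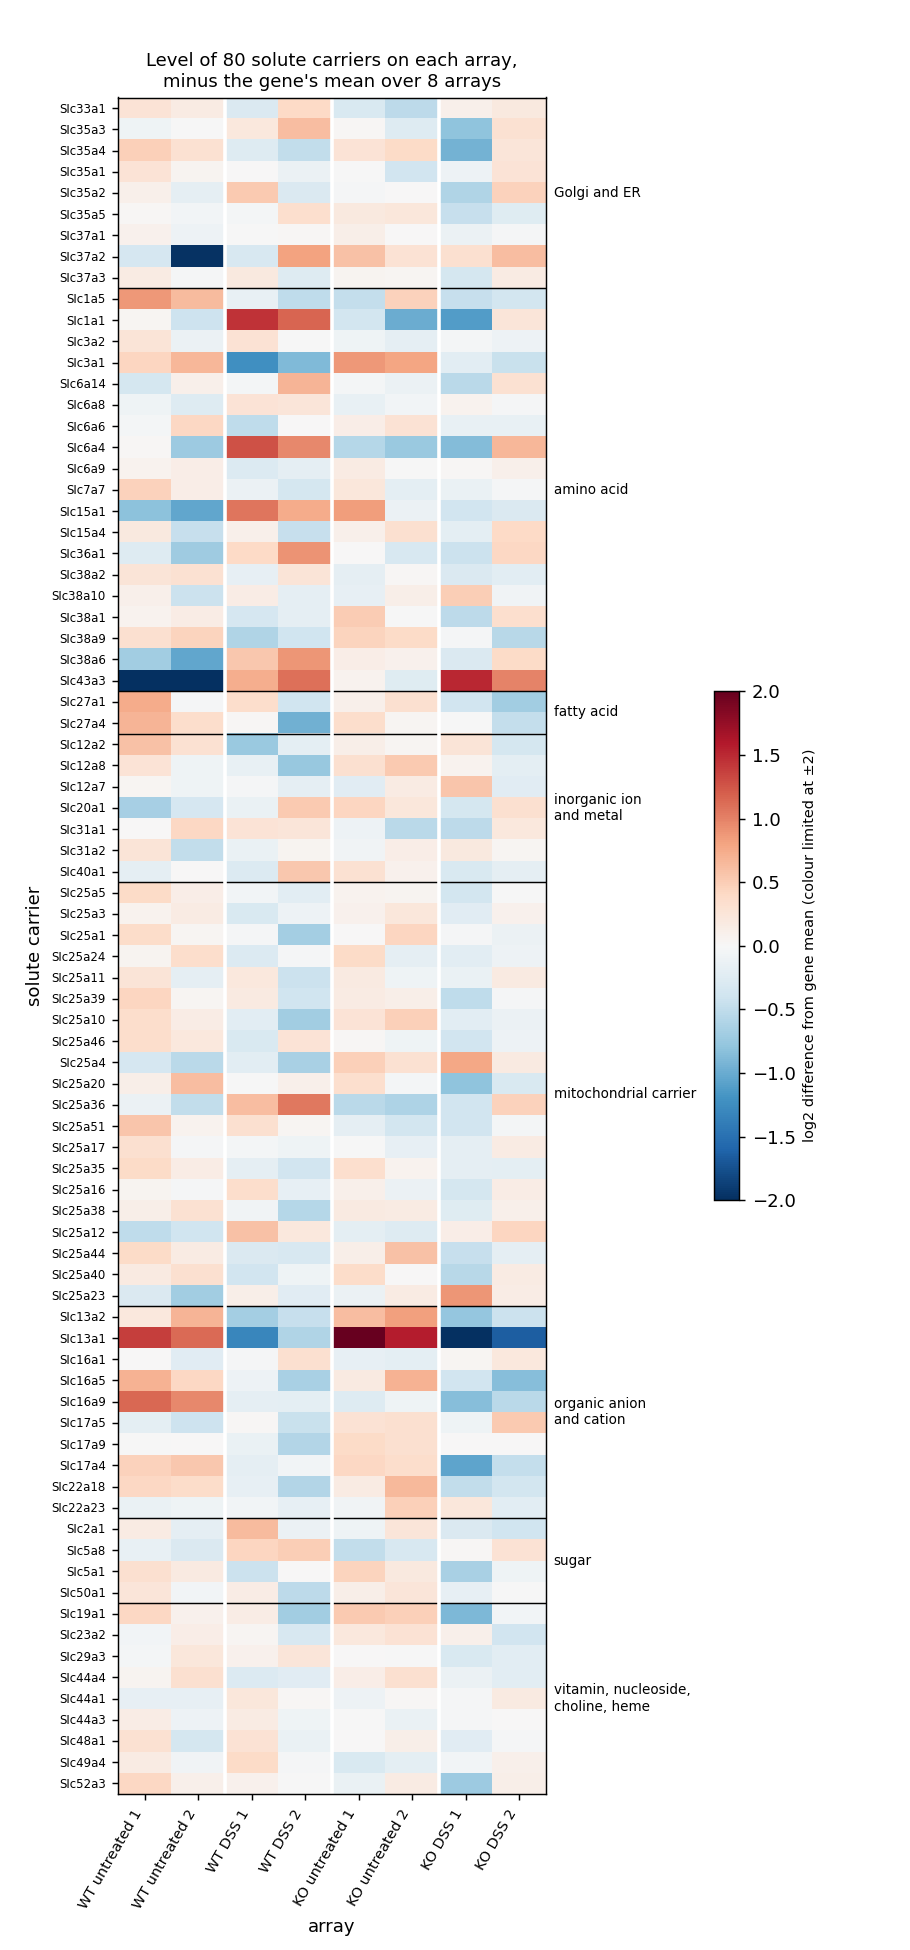
Log2 difference of each of the 80 solute carriers (rows, grouped by class) from its own mean over 8 arrays, on each array (columns, 4 groups of 2), with colour limited at 2 in each direction. Slc13a1 in the organic anion class is high on the 4 untreated arrays and low on the 4 DSS arrays, and Slc43a3 at the foot of the amino acid class is low on both untreated WT arrays.

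In WT colon epithelium, carriers of sulfate, dicarboxylates and cystine and a monocarboxylate carrier family member fell with DSS, and a nucleobase carrier, a peptide carrier and an amino acid carrier family member rose. Of the 80 genes, 7 passed an adjusted p of 0.05 in limma (Benjamini-Hochberg over 13003 genes), which is 8.75%, against 4.04% of all genes tested. Of the 7, 3 were higher and 4 lower, against 2.91% and 1.12% of all genes. Of the 7, Slc13a1, Slc3a1, Slc16a9, Slc43a3 and Slc38a6 had a group mean below 9. Their place among the 80 depended in part on the groups in which they were high, so the shares are descriptive only. The DSS and untreated arrays did not overlap for 58.8% of the 80, 15 higher and 32 lower, and for 44.4% of all genes tested. Among the 5458 other genes with a mean of 9 or more that are no solute carriers, 3.21% passed. The median difference of the 80 was -0.17, against -0.05 for all genes tested. Below 0 were 46 of the 80 and 7188 of all 13003 genes tested. The 73 that did not pass ran from -1.08 for Slc1a5 to 1.49 for Slc1a1.

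Slc13a1 (TC0600001939.mm.2) encodes a sodium-coupled sulfate transporter. Its log2 signal was 12.48 and 12.23 on the untreated WT arrays and 9.80 and 10.50 on the WT DSS arrays. On the knockout arrays it was 13.18 and 12.68 untreated and 8.50 and 9.45 with DSS. All 4 DSS arrays lay below all 4 untreated ones, and the lowest 2 values were those of the knockout with DSS. In WT it fell by 2.21 ± 0.35 (SE, n = 2 against 2), a 4.62-fold lower signal (limma adjusted p = 0.00404). Without untreated WT replicate 1 the adjusted p was 0.0506.

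Slc3a1 (TC1700001268.mm.2) encodes rBAT, the heavy subunit of the carrier for cystine and basic amino acids. It read 9.83 and 10.06 untreated against 8.16 and 8.52 on DSS in WT, and 10.27 and 10.19 against 9.18 and 8.95 in the knockout. The treated and untreated arrays did not overlap, and the WT DSS arrays were the lowest. In WT it fell by 1.61 ± 0.24 (limma adjusted p = 0.00256), 3.05-fold. Its light subunit partner Slc7a9, whose mean of 6.10 kept it out of the 80, was 7.18 and 6.63 in untreated WT, and both WT DSS arrays, at 5.64 and 5.82, were not above background, so no size of change is given for it.

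Slc13a2 (TC1100003296.mm.2) encodes the sodium-coupled carrier of citrate and succinate. Untreated WT arrays read 14.09 and 14.55, and WT DSS arrays 13.20 and 13.41. Untreated knockout arrays read 14.48 and 14.70, and knockout DSS arrays 13.10 and 13.44. The 4 DSS arrays spanned 13.10 to 13.44 and lay below every untreated array in both genotypes. In WT the fall of 1.01 ± 0.25 just passed (limma adjusted p = 0.0491), and it did not pass under 9 of 17 alternatives, among them leaving out any 1 array other than the knockout DSS arrays (adjusted p 0.0237 to 0.343 over all 17).

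Promoter sequence is shown for Slc3a1 and Slc13a2 because, of the 4 genes that passed with DSS in both genotypes, these are the ones with an entry in the RefSeq table used (GRCm38.p6). The capitals mark matches on either strand to motif letters of factors known from intestinal epithelium: CAAAGTNCA for HNF4 and TTTATNG for CDX. The HNF1 motif was searched too. No base of one match was shared with another. In Slc3a1 the CDX match lay 73 to 67 bases and the HNF4 match 39 to 31 bases before the annotated start. The Slc3a1 window is chr17:85028097-85028346 on the plus strand, and the Slc13a2 window, cut to the bases outside the annotated gene, is chr11:78422282-78422484 on the minus strand.
Slc3a1: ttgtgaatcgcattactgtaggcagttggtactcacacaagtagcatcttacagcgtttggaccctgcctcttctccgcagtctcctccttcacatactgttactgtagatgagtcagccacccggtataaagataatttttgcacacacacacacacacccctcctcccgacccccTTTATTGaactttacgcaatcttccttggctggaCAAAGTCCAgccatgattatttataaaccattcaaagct
Slc13a2: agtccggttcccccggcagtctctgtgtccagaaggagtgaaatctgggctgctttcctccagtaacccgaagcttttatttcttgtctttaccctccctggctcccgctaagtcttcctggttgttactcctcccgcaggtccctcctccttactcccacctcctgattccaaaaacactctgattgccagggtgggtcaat
None of the 3 sets of letters was in the Slc13a2 window. Over all 32851 RefSeq promoter windows, CAAAGTNCA was in 1.19%, TTTATNG in 9.81% and the HNF1 motif in 0.371%. The table held 62 of the 80 genes with 79 windows, of which 1.27%, 2.53% and 0.0% held these letters. A match describes the letters in the window and does not show binding.

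Slc16a9 (TC1000000674.mm.2), a member of the monocarboxylate transporter family, also fell in WT. It was 10.58 and 10.38 untreated and 9.25 and 9.23 with DSS in WT, and 9.16 and 9.33 untreated and 8.58 and 8.89 with DSS in the knockout. Both untreated WT arrays stood above the other 6, and the untreated knockout arrays lay at the level of WT with DSS. The WT change was -1.24 ± 0.23 (limma adjusted p = 0.00981). Without untreated WT replicate 1, untreated WT replicate 2 or WT DSS replicate 2 the adjusted p was 0.121, 0.0558 and 0.0567.

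Slc43a3 (TC0200001226.mm.2), placed among amino acid carriers by its family, encodes a carrier of purine nucleobases. It read 6.89 and 7.0 untreated against 9.75 and 10.12 on DSS in WT, and 9.09 and 8.78 against 10.52 and 10.02 in the knockout. The untreated WT arrays were the lowest, the untreated knockout arrays came next and the DSS arrays were highest in each genotype. In WT it rose by 2.99 ± 0.26 (limma adjusted p = 7.49e-05), 7.92-fold. This order of groups is also that of the fibroblast and matrix marker mean given above, which was 8.15 and 8.46 untreated against 10.98 and 11.57 on DSS in WT, and 9.84 and 9.55 against 11.89 and 10.99 in the knockout. With DSS in WT, 9 of the 11 fibroblast markers, 5 of 8 endothelium markers and 5 of 6 tested macrophage and dendritic cell markers rose, and none fell. The endothelium mean was 6.30 to 6.39 untreated against 7.92 to 8.28 on DSS in WT, and 7.21 to 7.36 against 8.04 to 8.68 in the knockout. The macrophage and dendritic cell mean had the same order of groups, at 5.22 to 5.30 untreated and 6.91 to 7.24 on DSS in WT, then 5.84 to 6.15 and 7.01 to 7.83 in the knockout. Of these markers Adgre1 and Itgax were below background on every array. Only 2 of the 8 macrophage and dendritic cell markers and 4 of the 8 endothelium markers were above it on every array. The macrophage and dendritic cell mean was itself below background on every untreated array, WT and knockout. The part of these cells in the Slc43a3 values was not tested.

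**Figure D2:**
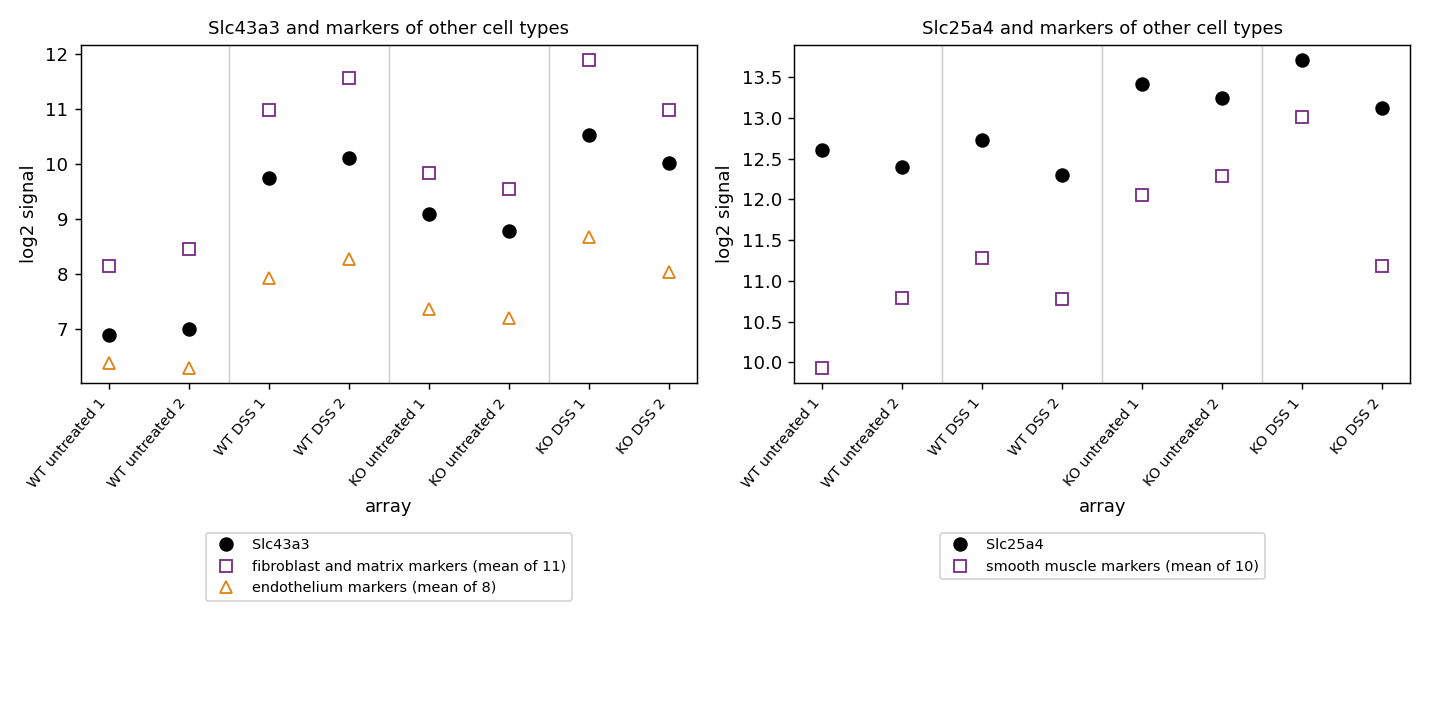
Log2 signal on each of the 8 arrays (x axis) of Slc43a3 with the means of 11 fibroblast and 8 endothelium markers (left), and of Slc25a4 with the mean of 10 smooth muscle markers (right). Slc43a3 and both marker means on the left are lowest in untreated WT and next lowest in untreated knockout, and Slc25a4 is higher on every knockout array (13.12 or more) than on any WT array (12.73 or less).

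Slc15a1 (TC1400002738.mm.2) encodes PepT1, the proton-coupled carrier of dipeptides and tripeptides. It was 11.33 and 11.11 in untreated WT and 13.23 and 12.90 in WT with DSS. The knockout arrays read 12.98 and 12.04 untreated and 11.77 and 11.87 with DSS. DSS arrays lay above untreated ones in WT and below them in the knockout, although the untreated knockout replicates were 0.95 apart, the widest gap of any of the 80 genes in that group. In WT it rose by 1.84 ± 0.30 (limma adjusted p = 0.00508), 3.58-fold, and without untreated WT replicate 2 the adjusted p was 0.0578.

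Slc38a6 (TC1200000641.mm.2), of the family of sodium-coupled neutral amino acid carriers, was 8.60 and 8.27 in untreated WT and 9.85 and 10.18 in WT with DSS. The knockout arrays read 9.43 and 9.39 untreated and 9.01 and 9.68 with DSS, and these groups overlapped. In WT it rose by 1.58 ± 0.27 (limma adjusted p = 0.00682). The adjusted p was 0.0883 without untreated WT replicate 2 and 0.0642 without WT DSS replicate 2. Slc1a1, the neuronal and epithelial glutamate carrier EAAC1, was 9.86 and 9.41 untreated and 11.27 and 10.99 with DSS in WT, a difference of 1.49 ± 0.40 that did not pass (adjusted p = 0.0662). It passed with trend and robust moderation or array weights (0.0446 each), with only the arrays compared (0.00999) and without either 1 of the knockout DSS arrays (0.00923). Slc6a4, the serotonin transporter, which epithelial cells use to clear serotonin, differed by 1.47 ± 0.43 and did not pass either (adjusted p = 0.0906).

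The WT count rested on the arrays used. It was 3 without untreated WT replicate 2, 4 without WT DSS replicate 2 and 12 without either 1 of the knockout DSS arrays, which enter this comparison only through the shared estimate of the spread. The share of all genes tested moved too, to 1.88%, 2.31% and 5.51%.

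In the knockout, 4 of the 80 genes passed between DSS and untreated arrays (5%, against 0.931% of all genes tested). All 4 had changed the same way in WT. Slc43a3 rose (0.538% of all genes tested rose), and Slc13a1, Slc13a2 and Slc3a1 fell (0.392% fell). Of the 4, Slc43a3, Slc13a1 and Slc3a1 had a group mean below 9, so this share is descriptive too. The DSS and untreated arrays did not overlap for 56.2% of the 80, 8 higher and 37 lower, and for 38.7% of all genes tested. Slc13a1 fell by 3.96 ± 0.35 (limma adjusted p = 0.000486), a 15.5-fold lower signal. Slc13a2 fell by 1.32 ± 0.25 (adjusted p = 0.0376) and Slc3a1 by 1.16 ± 0.24 (adjusted p = 0.0476), while Slc43a3 rose by 1.34 ± 0.26 (adjusted p = 0.0395). Slc13a1 alone kept its call with each array left out. Without either untreated WT array, either untreated knockout array or knockout DSS replicate 1 it was the one gene of the 80 that passed, where 0.138% to 0.561% of all genes tested did, and the adjusted p of the other 3 ran up to 0.339, 0.32 and 0.366 over their alternatives. In the knockout, 6 of 11 fibroblast, 3 of 8 endothelium and 4 of 6 macrophage and dendritic cell markers rose and none fell. The median difference of the 80 was -0.21, against -0.04 for all genes tested. Below 0 were 56 of the 80 and 7169 of all 13003 genes tested.

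The 76 genes that did not pass in the knockout ran from -1.15 for Slc17a4 to 0.63 for Slc25a36. Slc17a4, an organic anion transporter of the phosphate carrier family, was 11.41 and 11.36 untreated and 9.95 and 10.52 with DSS, a difference of -1.15 ± 0.25 (limma adjusted p = 0.0586). Slc25a36, which carries pyrimidine nucleotides into mitochondria, differed by 0.63 ± 0.30 (adjusted p = 0.574).

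The DSS differences of WT and knockout, which share no array, had the same sign in 60 of the 80 genes (75%), against 61.9% of all genes tested. Across the 80 genes the differences correlated with r = 0.67, and across all genes tested with r = 0.57, as a description over genes, which are not independent of each other. The DSS arrays lay beyond the untreated arrays in the same direction in both genotypes for 27 of the 80 genes, 5 higher and 22 lower, against 15.5% of all genes tested. The 22 included 8 mitochondrial carriers and 7 of the 10 organic anion and cation carriers.

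**Figure D3:**
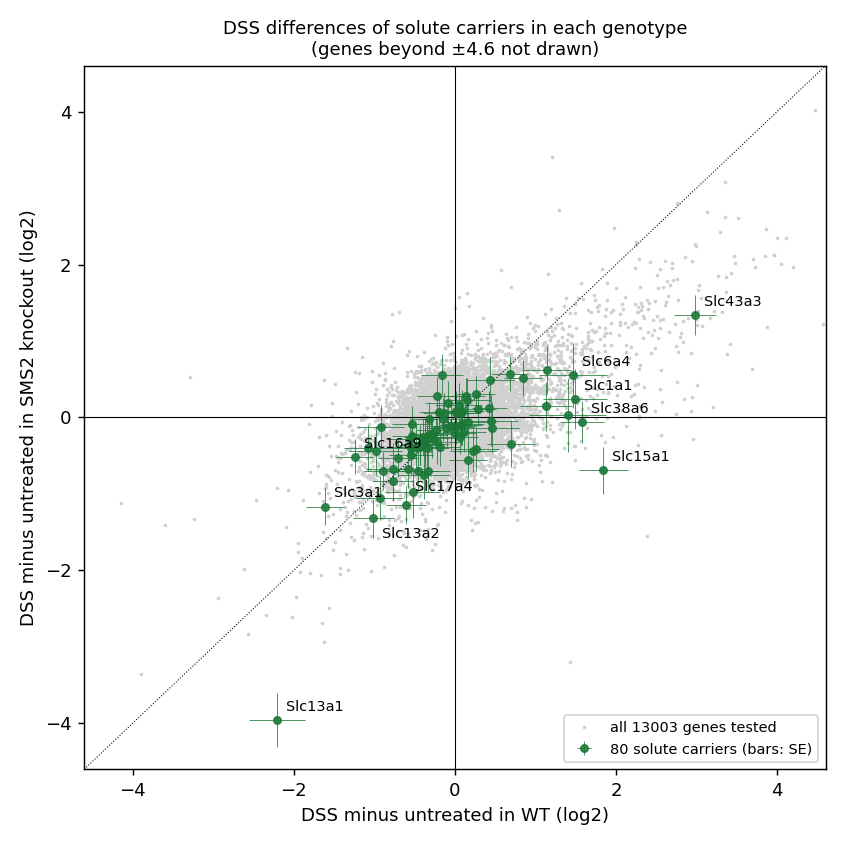
Log2 difference of DSS minus untreated in WT (x axis) and in SMS2 knockout (y axis) for the 80 solute carriers (green, bars are limma SE) over all genes tested (grey), with the line of equal change dotted. Slc13a1 lies lowest at -2.21 and -3.96, Slc43a3 highest in the knockout at 1.34, and Slc15a1 is at 1.84 in WT and -0.69 in the knockout.

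Averaged over both genotypes, 13 of the 80 genes passed between DSS and untreated arrays (16.2%). That compares with 5.52% of all genes tested and 4.64% of the other genes with a mean of 9 or more. Of the 13, 5 were higher and 8 lower, against 3.47% and 2.05% of all genes. Slc43a3, Slc38a6, Slc13a1, Slc3a1 and Slc16a9 among the 13 had a group mean below 9, so the share is descriptive. All 4 DSS arrays lay beyond all 4 untreated arrays for 26.2% of the 80, 4 higher and 17 lower, and for 10.4% of all genes tested. The 3 largest falls were those of Slc13a1, by 3.08 ± 0.25 (limma adjusted p = 3.13e-05), Slc3a1, by 1.39 ± 0.17 (adjusted p = 0.000488), and Slc13a2, by 1.17 ± 0.18 (adjusted p = 0.00237). Slc43a3 rose most, by 2.16 ± 0.18 (adjusted p = 4.41e-05). These 4 passed under each of 8 other settings (filters, scalings, variance models, weights and the replicate block) and with any 1 array left out. With equal array medians the split was 1 higher and 10 lower among the 80 and 391 higher and 362 lower among all genes tested, against 451 and 267 as deposited.

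By class, the organic anion and cation carriers had the lowest median. Of the 10, 6 fell and none rose, with a class median of -0.84, against -0.04 for all genes tested and a median over the 80 genes of -0.11. Besides Slc13a1, Slc13a2 and Slc16a9 these were Slc16a5, Slc17a4 and Slc22a18. The class median was -0.69 in WT and -0.67 in the knockout alone. Slc5a8, by function a monocarboxylate carrier, was sorted by family with the sugar carriers and rose by 0.63.

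Slc16a5, of the monocarboxylate transporter family, was 12.78 and 12.51 untreated against 11.98 and 11.44 on DSS in WT, and 12.27 and 12.78 against 11.71 and 11.24 in the knockout. Every DSS array was below every untreated one. The averaged fall was 0.99 ± 0.20 (limma adjusted p = 0.0147). It was 0.0754 without untreated WT replicate 1, 0.0568 without WT DSS replicate 2 and 0.0786 without untreated knockout replicate 2.

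Slc17a4 read 11.47 and 11.53 in untreated WT and 10.83 and 10.96 in WT with DSS, beside the knockout values above. It fell by 0.88 ± 0.17 (adjusted p = 0.0122, and 0.051 to 0.0547 without any 1 of the 4 untreated arrays). Slc22a18, an organic cation carrier family member whose cargo is not well known, was 11.54 and 11.50, then 10.96 and 10.54, in WT, and 11.28 and 11.78, then 10.64 and 10.75, in the knockout. It fell by 0.80 ± 0.18 (adjusted p = 0.0236) and passed in 3 of the 8 fits without 1 array (up to 0.133 without untreated knockout replicate 2). Slc16a9 fell by 0.88 ± 0.16 (adjusted p = 0.00801, and 0.0519 without untreated knockout replicate 2). Both genotypes thus showed these carriers lower on each DSS array than on each untreated array of the same genotype.

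The other 4 genes of the class did not pass. Slc16a1, the main proton-coupled carrier of lactate and butyrate, differed by 0.28 with DSS and read 13.68 to 14.23 over all 8 arrays. Slc17a5, the lysosomal sialic acid exporter, differed by 0.00, Slc17a9, a vesicular nucleotide carrier, by -0.35, and Slc22a23 by -0.10.

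**Figure D4:**
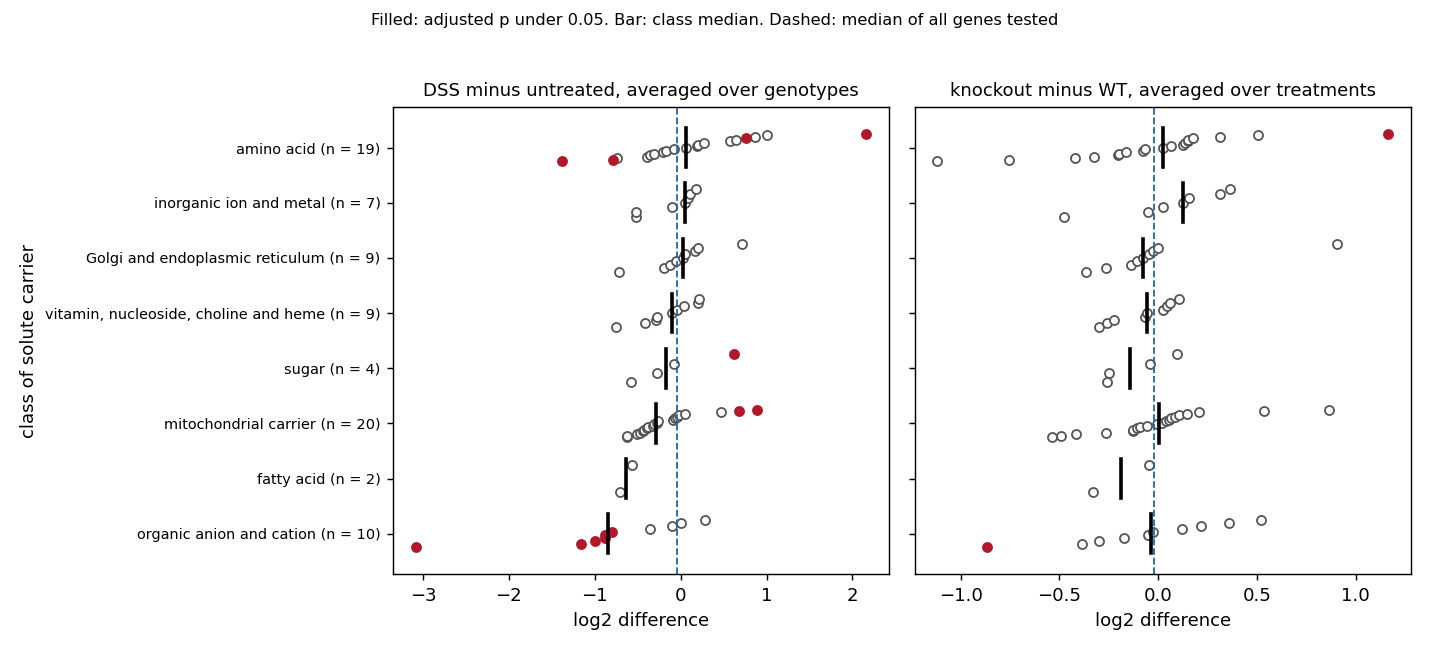
Log2 difference of each solute carrier (points, by class on the y axis) for DSS minus untreated averaged over genotypes (left) and knockout minus WT averaged over treatments (right), filled where the limma adjusted p is under 0.05, with class medians as bars and the median of all genes tested dashed. The organic anion and cation class has 6 filled points below 0 on the left, and its median of -0.84 is the lowest of the 8 classes.

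Of the 20 mitochondrial carriers, 16 were below 0 with DSS and the class median was -0.29, but none fell past the threshold and 2 rose. Of all 13003 genes tested, 7348 were below 0. Slc25a36 was 12.11 and 11.73 untreated against 12.84 and 13.28 on DSS in WT, and 11.68 and 11.60 against 11.84 and 12.69 in the knockout. It rose by 0.88 ± 0.21 (limma adjusted p = 0.034). Slc25a12, which exchanges aspartate for glutamate across the inner membrane, was 9.98 and 10.08, then 11.07 and 10.68, in WT, and 10.28 and 10.22, then 10.61 and 10.91, in the knockout. Its DSS arrays were above the untreated ones in both genotypes, and it rose by 0.68 ± 0.17 (adjusted p = 0.0372). With equal array medians the adjusted p was 0.0539 for Slc25a36 and 0.0638 for Slc25a12, and each passed in 2 of the 8 fits without 1 array (up to 0.141 and 0.151).

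The mitochondrial carriers with values below 0 covered several cargoes, and none passed. Slc25a44, a carrier of branched-chain amino acids, differed by -0.63, Slc25a10, the dicarboxylate carrier, by -0.62, and Slc25a20, which brings acylcarnitines in for fatty acid oxidation, by -0.51. Slc25a1, the citrate carrier, differed by -0.42, the adenine nucleotide carrier Slc25a5 by -0.32 and the phosphate carrier Slc25a3 by -0.27. In 8 of the 20, these 6 with Slc25a35 and Slc25a38, each DSS array lay below each untreated array of its genotype, against 15.5% of all genes tested that lay apart in the same direction, up or down, in both genotypes. Of 9 tested genes of mitochondrial membrane carriers and related proteins outside the Slc symbols, among them Sfxn genes and the calcium uniporter gene Mcu, none passed in any comparison with limma. Mtch2, an outer-membrane relative of the mitochondrial carriers, differed by -0.72 with DSS averaged (adjusted p = 0.0828).

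The amino acid carriers moved both ways, with a class median of 0.07. Slc43a3 and Slc38a6 rose and Slc3a1 and Slc38a9 fell. Slc38a9 encodes the lysosomal arginine sensor that acts upstream of mTOR. It was 10.02 and 10.14 untreated against 9.09 and 9.29 on DSS in WT, and 10.14 and 10.08 against 9.67 and 9.15 in the knockout, and fell by 0.79 ± 0.17 (limma adjusted p = 0.0206). It passed in 3 of the 8 fits without 1 array (up to 0.0868 without untreated WT replicate 2). Slc38a6 rose by 0.76 ± 0.19 (adjusted p = 0.0442), although the knockout difference was -0.06, and passed in 1 of the 8 fits without 1 array (up to 0.171). Slc3a2, the widely used heavy subunit, differed by 0.07 and Slc1a5, the glutamine carrier, by -0.74 (adjusted p = 0.0775). Slc6a14, an apical carrier of neutral and basic amino acids, differed by 0.20 and the creatine carrier Slc6a8 by 0.28, the latter with DSS arrays above untreated ones in both genotypes. Among 21 tested genes of the amino acid response driven by ATF4, none passed in any comparison with limma, and the median averaged DSS difference was -0.13. Ddit4, an inhibitor of mTOR signalling, differed by 0.62 (adjusted p = 0.0716).

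Of the 4 genes in sugar carrier families, Slc5a8 rose. By function Slc5a8 is a sodium-coupled carrier of butyrate and other monocarboxylates. It was 16.11 and 15.96 untreated against 16.69 and 16.75 on DSS in WT, and 15.76 and 15.93 against 16.28 and 16.55 in the knockout. Its DSS arrays lay above all untreated arrays, and the rise was 0.63 ± 0.16 (limma adjusted p = 0.043), which was 0.075 with equal array medians and passed in 1 of the 8 fits without 1 array (up to 0.177). The glucose carriers did not pass: Slc5a1, coupled to sodium, differed by -0.58, and Slc2a1, the facilitative carrier GLUT1, by -0.08.

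No gene of the remaining 4 classes passed with DSS averaged. Both fatty acid carriers were below 0, Slc27a4 at -0.71 (limma adjusted p = 0.114) and Slc27a1 at -0.57. Among ion and metal carriers, Slc12a2, the sodium, potassium and chloride cotransporter that feeds chloride secretion, differed by -0.52, the iron exporter Slc40a1 by -0.11 and the copper carrier Slc31a1 by 0.11. In the vitamin, nucleoside, choline and heme class, the folate carrier Slc19a1 differed by -0.75, the lowest of the 67 genes that did not pass, and the choline carrier family member Slc44a4 by -0.41. In the Golgi and endoplasmic reticulum class, the nucleotide sugar carrier family member Slc35a4 differed by -0.72 and Slc37a2, a sugar phosphate carrier, by 0.72. The untreated WT replicates of Slc37a2 were 11.83 and 10.20, the widest gap among the 80 genes in that group.

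Of 12 tested partners of solute carriers and sodium pump genes, 1 passed as higher and 1 as lower with DSS averaged, and none passed in a pairwise comparison. Sgk1, a kinase that promotes sodium transport, was 13.04 and 13.40, then 12.33 and 12.15, in WT, and 13.10 and 13.49, then 12.10 and 12.31, in the knockout, and fell by 1.03 (limma adjusted p = 0.0047). Emb, a chaperone of monocarboxylate carriers, was the one that passed as higher (adjusted p = 0.0345), but none of its 4 untreated arrays was above background, so no size of change is given.

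**Figure D5:**
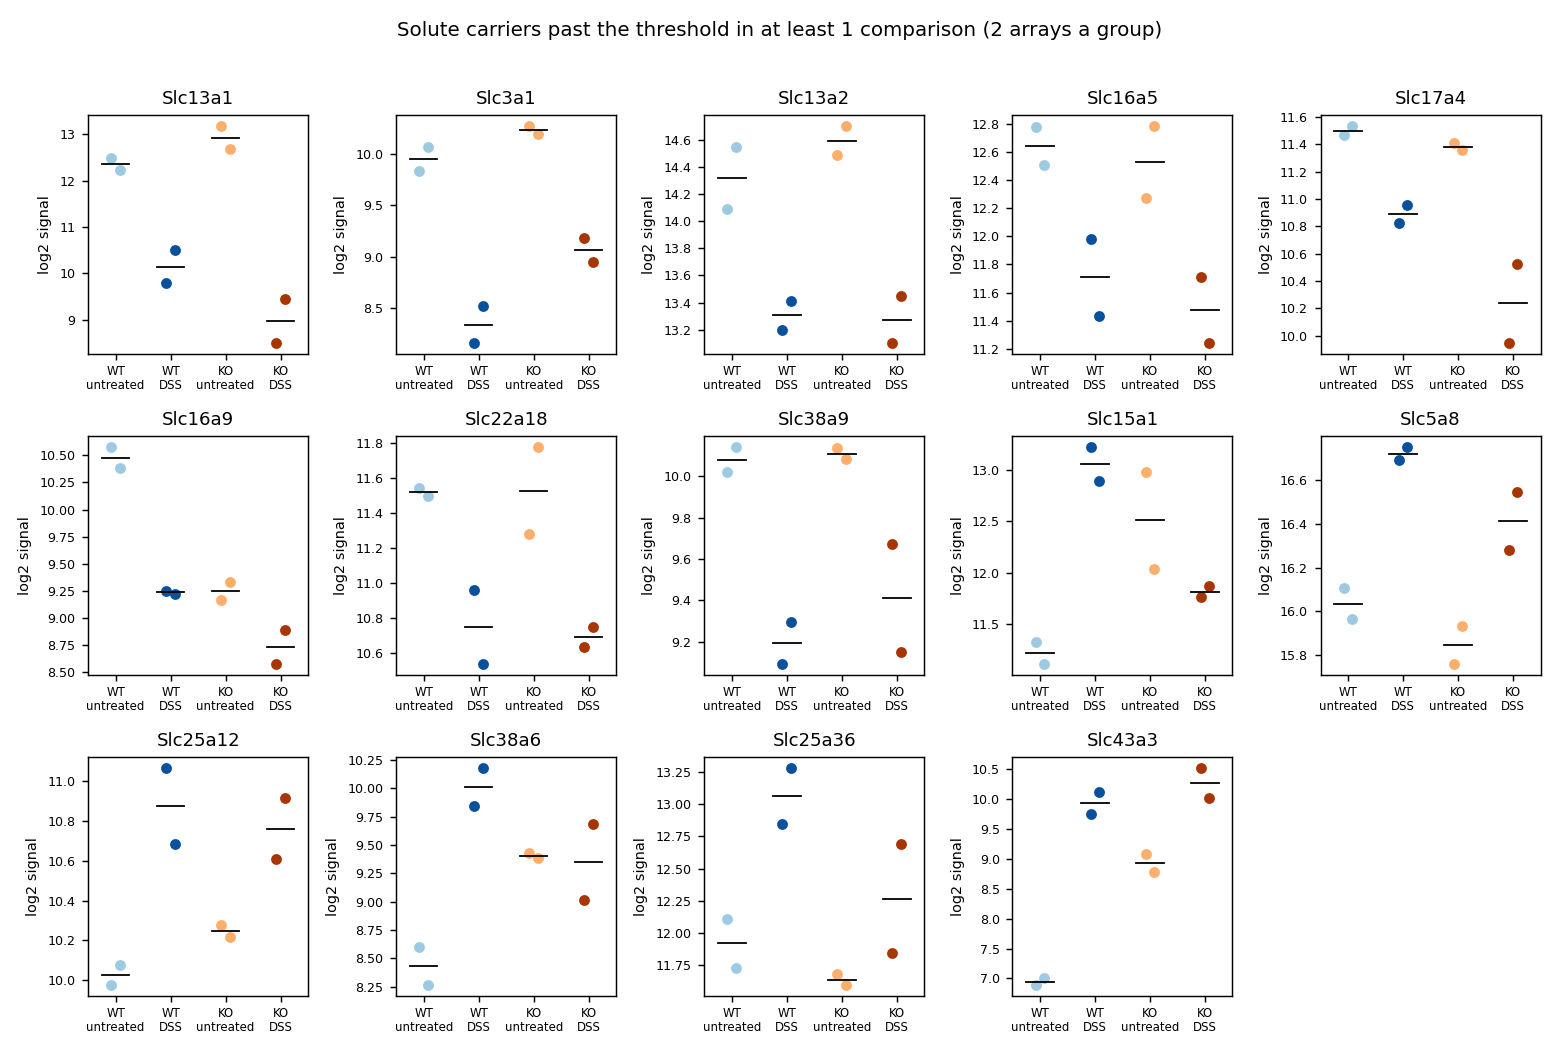
Log2 signal of the 14 solute carriers that passed an adjusted p of 0.05 in at least 1 comparison (1 panel each, own y axis, not starting at 0), by group, with each array as a point and the group mean as a line. Slc13a1, Slc3a1 and Slc13a2 are lower in both DSS groups, and Slc15a1 is higher with DSS in WT and lower in the knockout.

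The averaged count was 5 without untreated WT replicate 1, 6 without untreated WT replicate 2, 8 without WT DSS replicate 2 or untreated knockout replicate 1, and 4 without untreated knockout replicate 2. The share of all genes tested was then 3.05% to 4.14%. With the fibroblast marker mean as a term in the fit, an alternative added after the data were seen, none of the 80 passed and 8 of all genes tested did, and with the proliferation marker mean none of the 80 and 21 of all genes did. The 8 proliferation markers had a mean of 10.04 to 10.12 untreated against 8.72 to 8.88 on DSS in WT, and 9.95 to 10.11 against 9.17 to 9.83 in the knockout. Both means move with DSS, and their part in these results was not tested.

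Of the 101 tested solute carriers with a mean below 9, 5 fell and none rose with DSS averaged (4.95%), against the 16.2% of the 80. Of all genes tested, 5.52% passed, 3.47% higher and 2.05% lower. Of the 37 tested genes in the 6 families left out, 1 rose and 2 fell (8.11%).

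Without DSS, knockout and WT differed in 1 of the 80 genes (1.25%, against 0.392% of all genes tested, of which 0.338% were higher and 0.0538% lower). That gene, Slc43a3, had a mean below 9 in both untreated groups, so this share is descriptive. The arrays did not overlap for 41.2% of the 80 and 38.2% of all genes tested. Slc43a3 was higher in the knockout by 1.99 ± 0.26 (limma adjusted p = 0.0126), 3.96-fold, from 6.95 ± 0.08 (SD, n = 2) to 8.93 ± 0.22. The call was lost without untreated WT replicate 1 (adjusted p = 0.139), untreated WT replicate 2 (0.112) or untreated knockout replicate 1 (0.105). In this comparison 3 of 11 fibroblast markers rose, with a list median of 1.52, and their part was not tested. Slc16a9 was lower in the knockout by 1.23 ± 0.23, from 10.48 ± 0.14 to 9.25 ± 0.12, and did not pass (adjusted p = 0.0514, and 0.00645 to 0.475 over its alternatives). Slc37a2 differed by 1.59 ± 0.48 (adjusted p = 0.295), but by 2.41 without untreated WT replicate 1 and 0.77 without untreated WT replicate 2. Slc15a1 differed by 1.29 ± 0.30 (adjusted p = 0.139). The median over the 80 genes was 0.01, against -0.03 for all genes tested.

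With DSS, none of the 80 passed between knockout and WT in limma, where 0.354% of all genes tested did (0.115% higher, 0.238% lower), and 11 of the 80 had an unadjusted p under 0.05, 2 higher and 9 lower, which is 13.8%, against 10.2% of all genes tested. The arrays did not overlap for 32.5% of the 80 and 34.9% of all genes tested. Slc1a1 had the lowest value. It was 8.70 and 10.07 in the knockout with DSS against 11.27 and 10.99 in WT, a difference of -1.74 ± 0.40 (limma adjusted p = 0.126). The groups did not overlap, but the knockout replicates stood apart, and without knockout DSS replicate 2 the difference was -2.43 and passed (adjusted p = 0.0107), while without knockout DSS replicate 1 it was -1.06 (0.421). Slc6a4, at 8.95 and 10.50 against 11.09 and 10.78, differed by -1.21 ± 0.43 (adjusted p = 0.376). Slc13a1 differed by -1.17 ± 0.35 (adjusted p = 0.288) and Slc15a1 by -1.24 ± 0.30 (adjusted p = 0.159). Without knockout DSS replicate 2 the count was 3 (Slc1a1, Slc6a4 and Slc13a1), with 1.65% of all genes tested.

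Averaged over treatments, 2 of the 80 genes differed by genotype (2.5%, against 0.677% of all genes tested, 0.423% higher and 0.254% lower): Slc43a3 was higher in the knockout by 1.16 ± 0.18 (limma adjusted p = 0.0167) and Slc16a9 lower by 0.87 ± 0.16 (adjusted p = 0.0354). Both genes had a group mean below 9, so this share is descriptive. All 4 knockout arrays lay beyond all 4 WT arrays for 2.5% of the 80 and 4.78% of all genes tested. Slc16a9 passed in 1 of the 8 fits that left out an array and Slc43a3 in 4. The count was 0 without either untreated WT array, WT DSS replicate 1 or untreated knockout replicate 1, 1 without WT DSS replicate 2, untreated knockout replicate 2 or knockout DSS replicate 1, and 5 without knockout DSS replicate 2. The share of all genes tested was 0.215% to 0.531% in the first case, 0.361% to 0.6% in the next and 2.78% in the last.

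Slc25a4, the adenine nucleotide carrier typical of heart and muscle, did not pass. It was 12.61 and 12.40 untreated against 12.73 and 12.30 on DSS in WT, and 13.42 and 13.25 against 13.71 and 13.12 in the knockout. All knockout arrays lay above all WT arrays, a difference of 0.87 ± 0.19 (limma adjusted p = 0.0731). The mean of 10 smooth muscle markers was 9.93 to 11.28 on the WT arrays and 11.18 to 13.01 on the knockout arrays, with 1 marker past the threshold, and its part was not tested. Slc25a5, another adenine nucleotide carrier, differed by -0.13. Slc1a1 differed by -1.12 ± 0.28 (adjusted p = 0.114).

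For the difference between the DSS changes of the genotypes (interaction), none of the 80 passed in limma, where 0.0769% of all genes tested did (0.0461% higher, 0.0308% lower), and 7 of the 80 had an unadjusted p under 0.05, 1 higher and 6 lower, which is 8.75%, against 5.45% of all genes tested. Slc15a1 had the lowest value, -2.54 ± 0.43 (limma adjusted p = 0.0853). It was the one gene of the 80 whose DSS arrays lay beyond the untreated arrays in opposite directions in the genotypes, which 4.27% of all genes tested did. The interaction passed with trend and robust moderation on all 8 arrays (adjusted p = 0.0323) and without untreated knockout replicate 2 (-3.01, adjusted p = 0.0208). Next came Slc13a1 at -1.75 ± 0.49 (adjusted p = 0.439), Slc43a3 at -1.65 ± 0.37 (adjusted p = 0.264) and Slc38a6 at -1.64 ± 0.39 (adjusted p = 0.298). On the other side, Slc12a2 was at 0.79 ± 0.40 (adjusted p = 0.935). So the larger fall of Slc13a1 in the knockout and the smaller rise of Slc43a3 there did not pass as differences between genotypes.

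In all, 14 of the 80 genes passed in at least 1 of the 7 comparisons, 7 of them in a pairwise comparison, and 66 in none. No such tally was made over all genes tested, so these counts are descriptive only.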

How the data were processed

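Per the submitters' processing notes, the authors made the deposited log2 values with Affymetrix Expression Console. Its version is not stated, and the background correction, normalization and build are not given in these sources. Of 28846 rows on the array, 19572 outside the controls carry 1 symbol in GEO's platform table. They stand for 19505 genes, 55 of them with more than 1 row, of which the one with the highest mean was used. The 33.3% of genes with the lowest mean were left out. The other 13003 were fitted with limma 3.58.1 in R 4.3.3 on 4 group means over all 8 arrays (lmFit and eBayes). Two-sided p-values were adjusted by Benjamini-Hochberg across the 13003 genes in each of 7 comparisons, with a threshold of 0.05. SE is limma's moderated SE, and SD is that of 2 arrays. The p-values measure the spread between these arrays, and their number limits precision: an exact permutation test of 2 against 2 cannot go below 0.333. The fits were tested on simulated data with independent noise for each gene and array. Those data held no shift of whole arrays and no difference in cell types, so they do not bear on these. The genes and lists were chosen with earlier results of these data known. Genes past the threshold were named first, then those of largest change, the 2 of smallest p in each class, and the 3 nearest the level of 9 on each side. Promoters came from RefSeq. Alternatives were other filters, scalings, variance models, weights, blocks and array sets.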

Additional observations from a re-analysis of the deposited data

Results flagged for a closer look

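The DSS change of Slc15a1, the peptide carrier PepT1, ran in opposite directions in the genotypes. Every WT DSS array lay above, and every knockout DSS array below, the untreated arrays of its genotype. The knockout difference of -0.69 did not pass, and the untreated knockout replicates were 0.95 apart. Of all genes tested, 4.27% had DSS arrays beyond the untreated arrays in opposite directions. The interaction was -2.54 on the log2 scale and did not pass (limma adjusted p = 0.0853, and 0.0208 to 0.448 over its other settings).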

How the results depend on the processing

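Of the 80 genes, 7 passed between DSS and untreated arrays in WT, 4 in the knockout and 13 on average. Between genotypes 1 passed in untreated arrays, 0 in DSS arrays and 2 on average, and the interaction gave 0. For DSS in the knockout the count was 1 with quantile normalization or with only the arrays compared. Of all genes tested, 0.569% and 0.108% then passed, against 0.931%. For genotype without DSS it was 2 with the lower 50% of genes left out, with equal array medians or with trend and robust moderation. The shares of all genes tested were then 0.584%, 0.346% and 0.531%, against 0.392%. The count was 4 with array weights and 3 with only the arrays compared, where 1.85% and 1.94% of all genes tested passed. The interaction gave 1 (Slc15a1) with trend and robust moderation, where 0.108% of all genes tested passed, against 0.0769%. Whether replicate numbers pair the arrays is not stated in the labels. Differences between replicates 1 and 2 correlated between groups by -0.25 to 0.28, which cannot settle it. With a replicate block, 3.65%, 0.784%, 5.38%, 0.369%, 0.346%, 0.723% and 0.0769% of all genes tested passed in the order above. The counts among the 80 were then 7, 2, 10, 1, 0, 1 and 0. Without 1 array, where a lone array is assumed to vary like the other groups, they ran from 3 to 12, 1 to 5, 4 to 15, 0 to 2, 0 to 3, 0 to 5 and 0 to 1. The cause was not tested.

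After the data were seen, 3 alternatives were added. Without both DSS replicate 1 arrays DSS changed 16 in WT, 2 in the knockout and 20 on average, and genotype 3 in untreated arrays and 1 on average. The shares of all genes tested were then 7.6%, 1.04%, 7.02%, 1.94% and 1.42%. With the fibroblast marker mean as a term these 5 counts were 0 in limma, with 14, 9, 14, 10 and 8 genes at an unadjusted p under 0.05. Of all genes tested, 0.0615%, 0.0385%, 0.0615%, 0.0154% and 0.0769% then passed, and the share at the unadjusted level was not counted. With the proliferation marker mean the 5 counts were 0, 1, 0, 2 and 5, with 0.177%, 0.123%, 0.162%, 0.931% and 2.77% of all genes tested. Genotype with DSS gave 2, with 0.784% of all genes tested. The fibroblast term turned the sign of Slc22a18 for DSS averaged (0.093) and of Slc6a4 for genotype averaged (0.26), and the proliferation term that of Slc17a5 for genotype with DSS (-0.29). None of the other settings turned a sign among 61 named values. Of 27 calls in all, 7 kept their side under each of those other settings and with each array left out.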
